A study of Mus musculus with 6 samples.

Results

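The genes described here encode receptors for the constant part of antibodies and members of the CD300 receptor family, together with the adaptor proteins through which many of them signal. They are Fcgr1, Fcgr2b, Fcgr3 and Fcgr4, the Fc receptor-like gene Fcrls, the adaptors Fcer1g and Tyrobp, and Cd300lb, Cd300a and Cd300lf. All probe sets whose only gene symbol in the platform annotation is one of these 10 names were taken, which gave 16 of the 34945 probe sets with 1 symbol, or 10 of 18193 genes. The 10 names were chosen by reading the knockout-minus-control differences of these same 6 arrays, so the members' own differences are given as a description. The limma calls among them are counted once beside the share over all genes and support nothing.

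The measurements come from mesenteric arteries, the arteries that supply the gut, of 7-week-old mice of a mixed background that included FVB, SVJ129 and C57BL/6. The 3 control mice (animals 30, 74 and 75) had loxP-flanked alleles of beta1 integrin (Itgb1) and no Cre. The 3 knockout mice (72, 73 and 86) carried the same floxed alleles and sm22alphaCRE, a recombinase driven by the promoter of the smooth muscle gene Tagln. Both groups received 1 mg of tamoxifen daily for 14 days from 5 weeks of age. Total RNA of each animal went onto 1 array after adipose and lymph tissue had been taken off the vessels, and the deletion is directed at smooth muscle whereas the RNA is that of all cells in the artery. By their titles, mouse 86 was female and the other 5 were male, so a female is present in the knockout group alone.

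Receptors for IgG are carried mainly by macrophages, monocytes, neutrophils and other leukocytes, and let these cells sense antibody-coated particles. Most activating receptors have no signalling motif of their own. They sit in the membrane beside a small adaptor, the Fc receptor gamma chain (Fcer1g) or DAP12 (Tyrobp), whose immunoreceptor tyrosine-based activation motif (ITAM) recruits the kinase Syk. Inhibitory receptors carry an inhibitory motif (ITIM) that recruits phosphatases. The CD300 proteins are built on the same plan and bind lipids exposed on cell surfaces, and some of them activate while others inhibit.

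Among the members, 8 had higher signal in all 3 knockout arteries than in any control artery, as did 12.9% of all genes tested. They were the IgG receptors that activate, both adaptors, Fcrls, Cd300lb and the inhibitory receptor Cd300a. The other inhibitory receptors, Fcgr2b and Cd300lf, had overlapping groups. The gap was narrow for Cd300a (0.06 on the log2 scale) and for the adaptor Tyrobp (0.02), whose groups overlapped with median centring. Cd300lb had the largest difference, at 4.86 ± 0.64 (SD, n = 3) on the log2 scale across the controls and 8.55 ± 0.94 (SD, n = 3) across the knockouts. Knockout 73 had the highest value for 9 of the 10 genes. Fcrls was the exception, with its highest value in knockout 86. The median of the 10 differences was 1.74 on the log2 scale and 1.13 with knockout 73 left out, against -0.05 and -0.06 over all 11378 genes tested.

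Whole-series checks came first. The targeted gene, Itgb1, averaged 11.35 ± 0.40 (SD, n = 3) on the log2 scale across controls against 10.61 ± 0.13 (SD, n = 3) across knockouts, or 60.1% of the control level; whether its probes lie in the deleted part was not examined. Xist, a transcript of female cells, was high in knockout 86 alone. The 8 smooth muscle markers were all above the filter on low values, at a summed log2 level of 15.62 to 15.99 in control and 15.45 to 15.70 in knockout arteries. A gene was tested where its mean log2 value over the 6 arrays was at least 6.10, the median of all probe sets, which is the filter on low values named below. In the fit over all genes (limma, a moderated linear model, with Benjamini-Hochberg adjustment), 299 of 11378 genes had an adjusted p under 0.05, and this count was 115 in a fit without knockout 73. Knockout 73 stood apart in leukocyte transcripts. Its immunoglobulin joining chain gene Jchain had a log2 value of 12.23, against 6.21 to 8.68 in the other 5 arrays, and its B cell receptor gene Cd79a had 7.03, against 3.57 to 4.56. The members' differences below are therefore given with and without this array.

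Promoter windows from RefSeq (GRCm38.p6), 250 bases before to 50 bases after a gene's start, were matched by symbol for 9 of the 10 genes. They were searched on both strands because most members moved together over the arrays, and the first motif was GAGGAA, the purine box that ETS factors such as PU.1 (Spi1) bind. It was found in 6 of 9 windows, those of Fcgr1, Fcgr3, Fcgr4, Fcrls, Cd300a and Cd300lf, and in 28.3% of all 32851 windows. The bases just before the start of Fcgr1, Fcgr3, Fcgr4 and Cd300a are shown as cases with the box nearby, and those of Cd300lb as the gene with the largest difference and no such letters. Each run holds 120 bases, 5′ to 3′ on the strand of the gene, with capitals marking GAGGAA or its reverse complement. They lie at chr3:96293970-96294089 (minus strand), chr1:171059404-171059523 (minus strand), chr1:171018806-171018925 (plus strand), chr11:114889921-114890040 (plus strand) and chr11:114934372-114934491 (minus strand).
Fcgr1 promoter: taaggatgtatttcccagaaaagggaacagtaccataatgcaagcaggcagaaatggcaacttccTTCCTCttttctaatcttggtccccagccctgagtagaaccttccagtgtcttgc
Fcgr3 promoter: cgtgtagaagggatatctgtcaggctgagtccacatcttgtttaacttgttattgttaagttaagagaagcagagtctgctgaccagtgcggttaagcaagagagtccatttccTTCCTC
Fcgr4 promoter: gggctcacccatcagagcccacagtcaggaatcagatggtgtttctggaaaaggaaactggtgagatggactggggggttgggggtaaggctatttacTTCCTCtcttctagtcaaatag
Cd300a promoter: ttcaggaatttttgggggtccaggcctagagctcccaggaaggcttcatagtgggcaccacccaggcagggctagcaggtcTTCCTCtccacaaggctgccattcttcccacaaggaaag
Cd300lb promoter: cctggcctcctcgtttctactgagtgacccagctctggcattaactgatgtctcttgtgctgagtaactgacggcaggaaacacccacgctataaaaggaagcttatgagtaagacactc

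In these 4 genes the box lay on the opposite strand, with its first letter 55, 6, 22 and 39 bases before the start in the order shown. In Fcrls it lay 144 bases before the start, on the strand of the gene. The longer GAGGAAG, which contains the first motif, was found in 6 of 9 windows and 13.6% of all, and GAGGAAGT in 2 of 9 (Fcgr4 and Cd300lf) and 3.20%. The overlapping AGGAAG was found in 8 of 9 windows, also those of Fcer1g and Cd300lb, and in 35.4% of all, and AGGAAGT in 4 of 9 and 9.35%. TTGCNNAA, a C/EBP motif, was found in 2 of 9 (Fcgr3 and Cd300a) and 10.8%. TGANTCA, an AP-1 motif, was found in 0 of 9 and 7.81%. TATAAA was found in 3 of 9 (Fcrls, Cd300lb and Cd300lf) and 13.6%, and the interferon response motif in 1 of 9 (Fcgr4) and 3.44%. The window of Fcgr2b held none of the 9 motifs. Cd300lb, without the box, stood at 3.69, and Cd300lf, with it but under the filter on low values, at 0.40. A relation between the box and the differences was not tested. Spi1 itself stood at 0.71 (SE 0.32, adjusted p = 0.251), and at 0.37 without knockout 73.

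**Figure D1:**
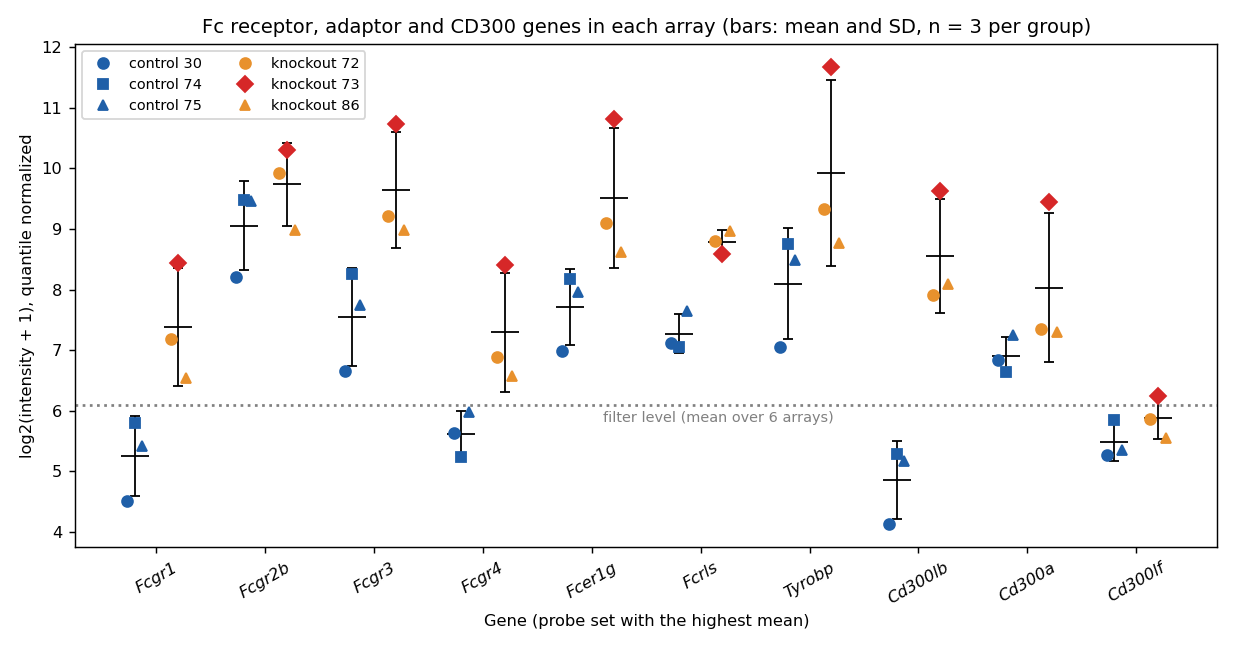
Signal of the 10 genes in each array, on the log2(intensity + 1) scale after quantile normalization. Each symbol is 1 animal (blue, control; orange and red, knockout), and bars give the mean and SD of 3 arrays per group. Knockout 73 (red diamond) is the highest of the 6 arrays for every gene except Fcrls, and the groups overlap for Fcgr2b and Cd300lf.

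Signal is given first as deposited, a linear intensity with no stated unit, in the order control 30, 74 and 75, then knockout 72, 73 and 86. Where a gene has several probe sets, the brightest on average stands for it. Differences subtract the control mean from the knockout mean after log2(intensity + 1) and quantile normalization, a scale that understates changes at low signal. The SE is that of the limma fit. Probes differ in how strongly they hybridise, so intensities of different genes are not compared. In whole arteries, a change in the number of cells of a type and a change in RNA per cell cannot be told apart.

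Fcgr1 encodes the high-affinity IgG receptor CD64. Its intensity was 22.0, 50.8 and 40.65 in the controls and 152, 348 and 93.6 in the knockouts. Every knockout artery lay above every control artery, and the lowest knockout value exceeded the highest control value by 0.73 on the log2 scale. The group means differed by 2.14 (SE 0.53), a 4.40-fold difference, and by 1.61 without knockout 73. A second Fcgr1 probe set, whose mean lay under the filter on low values, differed by 0.81 and also had no overlap.

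Fcgr3 encodes the low-affinity activating receptor CD16, which depends on the gamma chain. Its intensity was 99.3, 297 and 207 in the controls and 604, 1687 and 518 in the knockouts. The groups did not overlap, and control 30 was the lowest array. The difference was 2.10 (SE 0.56), or 4.28-fold, and 1.55 without knockout 73.

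Fcgr4 encodes the third activating IgG receptor of the mouse, which also depends on the gamma chain. Its intensity was 48.6, 34.6 and 60.3 in the controls and 124, 342 and 96.5 in the knockouts. Again no control reached a knockout. The difference was 1.68 (SE 0.48), and 1.11 without knockout 73. For Fcgr1 and Fcgr4 the control means, at log2 values of 5.25 and 5.62, lay under the filter level of 6.10, so both passed the filter through their knockout arrays.

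Fcgr2b encodes the only inhibitory IgG receptor, and it behaved differently in these arrays. Its brightest probe set had intensities of 292, 711 and 689.5 in the controls and 985, 1248 and 518 in the knockouts. Knockout 86 lay under controls 74 and 75, so the groups overlapped. The difference was 0.68 (SE 0.45). It was 0.40 without knockout 73, 0.26 without control 30 and 1.06 without knockout 86, and 0.23 with the mean of all its probe sets. Fcgr2b has 5 probe sets, of which 4 passed the filter, and their differences were 0.68, 0.18, 0.37 and 0.40, all with overlapping groups. Without knockout 73 these were 0.40, -0.02, 0.01 and 0.10. The fifth, under the filter, stood at -0.48. The brightest carries the suffix s and another the suffix x, which mark probes that can match other transcripts; the outer parts of Fcgr2b and Fcgr3 are alike in sequence, so these values are uncertain between the genes. The Fcgr2b probe sets with neither mark stood at 0.18 and 0.40, and at -0.48 for the fifth, under the filter.

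The gamma chain gene Fcer1g, which Fcgr1, Fcgr3 and Fcgr4 need at the cell surface, had intensities of 126, 279 and 243 in the controls and 554, 1777 and 400.4 in the knockouts. All 3 knockouts exceeded the controls, knockout 86 by the least, 0.45 on the log2 scale over the highest control. The difference was 1.80 (SE 0.59), or 3.48-fold, and 1.15 without knockout 73.

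Tyrobp encodes DAP12, the adaptor of many myeloid and natural killer cell receptors. Its intensity was 131, 424 and 348 in the controls and 648, 3172 and 449 in the knockouts. Knockout 73 stood 2.63 on the log2 scale above the mean of the other 2 knockouts, the widest such gap among the members. Knockout 86 and control 74 were nearly level, 8.77 and 8.76. The lowest knockout minus the highest control was 0.02 after quantile normalization and -0.07, an overlap, with median centring. The difference was 1.83 (SE 0.80) with all arrays and 0.95 without knockout 73.

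Fcrls encodes an Fc receptor-like protein with a scavenger receptor domain, known from microglia and other resident macrophages. Its intensity was 137, 125 and 194 in the controls and 458, 385 and 516 in the knockouts. The groups did not overlap, and the knockouts lay within 0.39 of each other on the log2 scale, while for the other members that passed the filter they spread over 1.32 to 2.90. The mean of the controls was 7.27 ± 0.32 (SD, n = 3) and that of the knockouts 8.79 ± 0.19 (SD, n = 3). They differed by 1.52 (SE 0.20), or 2.86-fold. It was the only member whose difference was larger without knockout 73, at 1.62.

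Cd300lb encodes an activating CD300 receptor that signals through DAP12. Its intensity was 16.5, 35.8 and 34.2 in the controls and 251, 794 and 278 in the knockouts. The lowest knockout lay 2.63 on the log2 scale above the highest control, the widest separation among the 10 genes. The difference was 3.69 (SE 0.51), or 12.9-fold, and 3.15 without knockout 73, or 8.85-fold. The control mean lay under the filter level, so the size of this fold depends on the added constant: the difference was 3.13 when 16 in place of 1 was added to every intensity.

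Cd300a encodes an inhibitory CD300 receptor with ITIMs. Its intensity was 113, 92.6 and 146 in the controls and 170.1, 698 and 161 in the knockouts. Knockouts 72 and 86 lay just above control 75, by 0.06 on the log2 scale for the lower of them, whereas knockout 73 stood 2.12 above their mean. The difference of 1.13 (SE 0.57) became 0.42 without knockout 73 and 0.54 with array weights. The second Cd300a probe set, with intensities under 35 in every array, differed by 1.08 and by 0.75 without knockout 73.

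Cd300lf encodes another inhibitory CD300 receptor. Its intensity was 37.1, 52.6 and 38.7 in the controls and 61.0, 76.2 and 46.6 in the knockouts. Its single probe set did not pass the filter, and knockout 86 lay under control 74. The means were 5.49 ± 0.32 (SD, n = 3) and 5.89 ± 0.35 (SD, n = 3), a difference of 0.40 that was 0.22 without knockout 73.

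**Figure D2:**
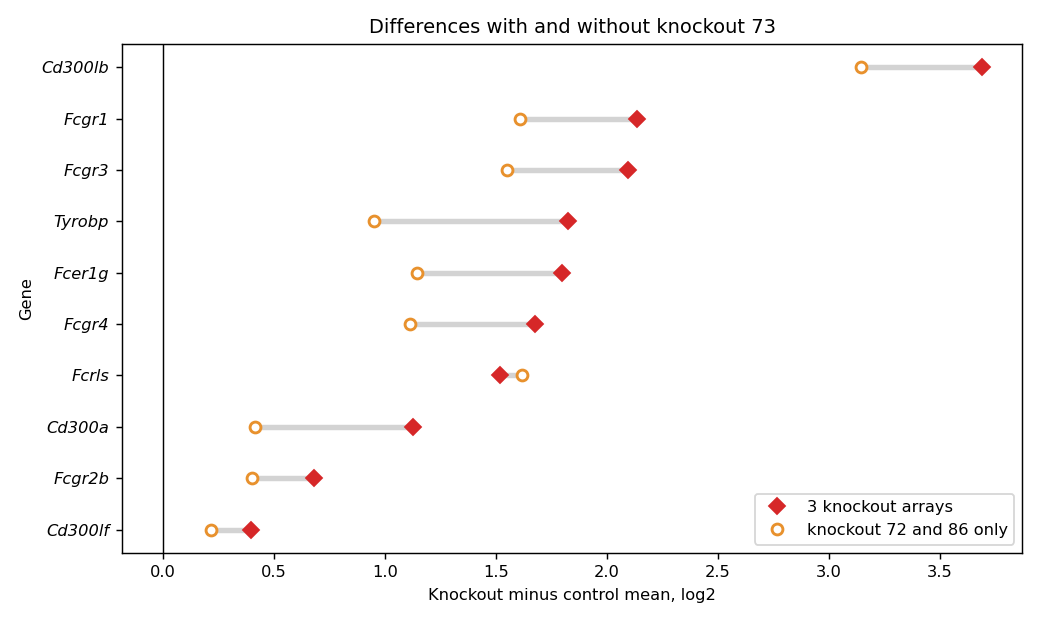
Knockout-minus-control difference of each gene on the log2 scale, with all 3 knockout arrays (red diamonds) and with knockout 72 and 86 only (open circles). Every difference is above 0 in both; Cd300lb is the largest at 3.69 and 3.15, and Fcrls alone is larger without knockout 73.

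By role, then, the 3 activating IgG receptors had differences of 1.68 to 2.14 and the adaptors of 1.80 and 1.83. The 3 inhibitory receptors stood at 0.68, 1.13 and 0.40. Of the 10 genes, 9 passed the filter, 3 of them with a control mean under its level. All knockouts lay above all controls for 8 of the 10 genes (7 with median centring), and the same arrangement was found in 12.9% of all genes tested. Without knockout 73 the count was again 8, against 17.9% of all genes. In the limma fit, which uses the contrast the members were selected on, 2 members, Fcrls and Cd300lb, had an adjusted p under 0.05 with a higher knockout mean, where 1.93% of all genes did so and 2.63% passed in either direction. Without knockout 73, 7 members were tested and the same 2 passed, against 1.01% of genes. The members were picked with this comparison known, and nothing is read from these shares.

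The arrays fell into a common order for most of the members. Control 30 was the lowest array for 7 of the 10 genes, and knockout 72 exceeded knockout 86 for 8. After each gene was centred on its mean over the 6 arrays, the median profile of the members stood at -1.40, -0.48 and -0.50 in controls 30, 74 and 75. It stood at 0.51, 2.05 and 0.07 in knockouts 72, 73 and 86. Each gene's likeness to this profile was measured as the root mean square distance over the 6 arrays. Fcer1g was the closest at 0.13, followed by Fcgr1 at 0.28 and Fcgr3 at 0.30. The farthest were Cd300lb at 1.03, whose range was wider, Cd300lf at 0.79 and Fcrls at 0.77.

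The 16 macrophage marker genes on the array, fixed as a list without the members, had nearly the same median profile. Their median stood at -1.47, -0.40 and -0.67 in the controls and at 0.49, 1.72 and 0.09 in the knockouts, within 0.33 of the members' median in every array. Their summed log2 level was 12.1 to 12.7 in control and 13.4 to 15.1 in knockout arteries, with all 16 higher on average in the knockout. Of the 15 tested, 11 had an unadjusted p under 0.05, against 21.4% of all genes, and 1 rose (limma adjusted p under 0.05, against 1.93% of all genes), the monocyte chemokine receptor gene Ccr2. It rose by 2.35 (SE 0.28, limma adjusted p = 0.0113) and was higher in 3 of 3 knockouts. The control mean of Ccr2, 5.64, lay under the filter level, so the gene passed the filter through its knockout arrays. Its limma adjusted p with no filter was 0.031. Ccr2 did not pass without control 75 (adjusted p = 0.0529) or without knockout 72 (adjusted p = 0.071). Its adjusted p ranged from 0.00235 to 0.071 over 14 alternatives. The macrophage growth factor receptor gene Csf1r stood at 1.58 (adjusted p = 0.138), the macrophage surface marker gene Adgre1 at 1.88 (adjusted p = 0.128), and the mannose receptor gene Mrc1 at 1.42 (adjusted p = 0.065; past the threshold with array weights, 0.0251). Without knockout 73 these 3 stood at 1.07, 1.22 and 1.16, Ccr2 at 2.25, and the median of the 15 tested went from 1.74 to 1.07. The part of macrophage content in the members' values was not tested.

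Markers of other artery cells were set beside these values. Of 8 endothelial markers 0 were higher in the knockout, with a median of -0.47 and 0 limma calls (3 at an unadjusted p under 0.05: Tek, Pecam1 and Vwf, all past the threshold with array weights). Of 8 smooth muscle markers 1 was higher, with a median of -0.34 and 0 limma calls (2 at an unadjusted p under 0.05: Lmod1 and Myh11). Lmod1 stood at -1.20 (limma adjusted p = 0.0561). It passed with median centring (adjusted p = 0.0291), no normalization between arrays (0.0496) or array weights (0.0134), and without control 74 (0.0204). Of 6 fibroblast markers 5 were higher, with a median of 0.60, and the collagen gene Col1a1 rose by 1.23 (SE 0.20, limma adjusted p = 0.029; 1 of 6, against 1.93% of all genes). Col1a1 did not pass with no filter (adjusted p = 0.0733) or without control 75 (0.088), knockout 72 (0.107), knockout 73 (0.0856) or knockout 86 (0.11, the highest over 15 alternatives). The part of these cells in the members' values was not tested.

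**Figure D3:**
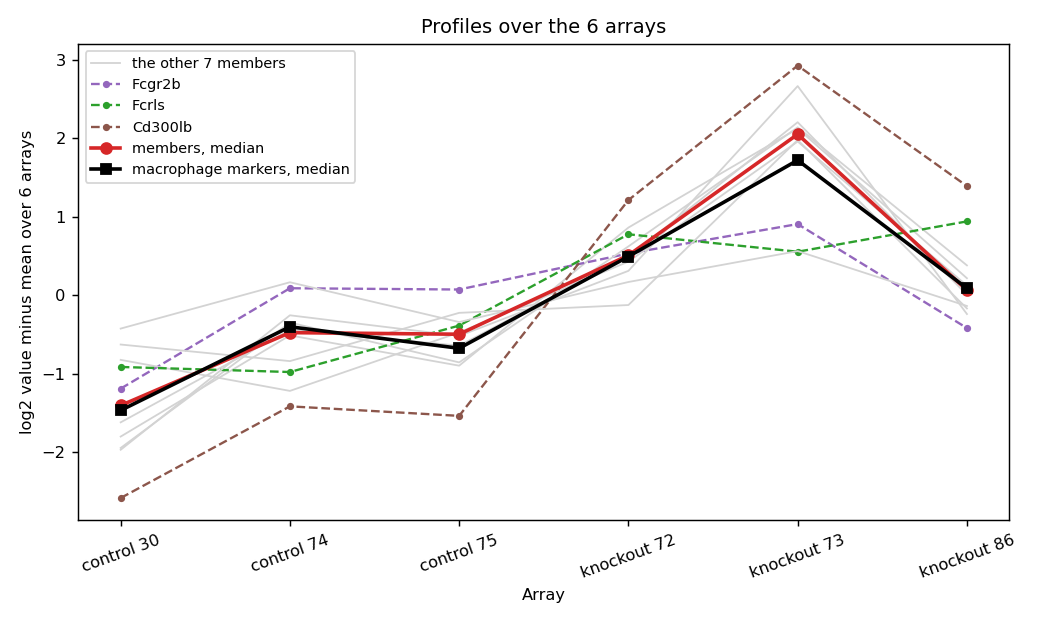
Log2 value of each member in the 6 arrays after subtracting its own mean, with the median of the 10 members (red) and of 16 macrophage markers (black). Both medians are lowest in control 30 and highest in knockout 73; Fcrls, Fcgr2b and Cd300lb are drawn as dashed lines.

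Set against this macrophage profile, Cd300lb and Fcgr2b went opposite ways. Cd300lb minus the macrophage median averaged -0.997 ± 0.13 (SD, n = 3) among controls and 1.08 ± 0.31 (SD, n = 3) among knockouts, with no overlap. For Fcgr2b the same quantity, also without overlap, averaged 0.51 ± 0.24 (SD, n = 3) among controls and -0.43 ± 0.43 (SD, n = 3) among knockouts. Cd300lf, at low signal, shifted by -1.22 with no overlap and Cd300a by -0.49. Fcrls minus the macrophage median was 0.28 and 0.85 in knockouts 72 and 86 but -1.17 in knockout 73. The other activating receptors and adaptors shifted by 0.06 (Fcgr4) to 0.52 (Fcgr1) between the group means, and of these Fcgr1 and Fcgr3 had no overlap. The direction of each shift follows from the size of the member's own difference, on which the members were selected. How many of all genes separate in this way was not counted, so nothing is read from it.

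The 10 genes outside the family whose values lay nearest the members' median profile were, in order, C1qb, H2-DMa, Irf8, Csf1r, H2-Eb1, C1qc, Adgre1, Nckap1l, Lst1 and Arhgap30. Their distances ran from 0.11 to 0.20, against a median of 1.11 over 11005 named genes. C1qb and C1qc encode chains of complement C1q, and H2-DMa and H2-Eb1 belong to class II antigen presentation. Their knockout-minus-control differences were 1.46 to 1.93, or 0.87 to 1.48 without knockout 73, and 0 of the 10 had a limma adjusted p under 0.05 in the unweighted fit of all 6 arrays (lowest for Arhgap30, adjusted p = 0.0699). With array weights Arhgap30 passed (adjusted p = 0.0278). These genes were picked for matching genes selected on this contrast, so their p-values test nothing, and 10 of 10 had an unadjusted p under 0.05.

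Markers of other leukocytes were low. Of 9 neutrophil markers on the array 8 lay under the filter, as did 8 of 9 mast cell, 6 of 6 B cell, 5 of 7 T cell and 7 of 7 natural killer cell markers. The neutrophil sum was 8.25 to 8.74 in control and 8.40 to 8.63 in knockout arteries. The mast cell sum was 8.32 to 8.64 and 8.27 to 8.57. The B cell sum was 7.80 to 7.90 in the controls, 7.54 and 7.33 in knockouts 72 and 86, and 8.89 in knockout 73. The T cell sum was 7.69 to 7.95 and 7.83 to 8.42, and the natural killer cell sum 7.38 to 7.81 and 7.60 to 7.98. Dendritic cell markers summed to 8.36 to 8.80 in control and 9.03 to 9.81 in knockout arteries, with 0 of 2 tested past the limma threshold and 1 at an unadjusted p under 0.05.

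Other Fc receptors and CD300 genes gave no call. Of 10 other Fc receptor genes on the array, 2 passed the filter and 0 the limma threshold (1 at an unadjusted p under 0.05): Fcgrt, the neonatal receptor that recycles IgG, at -0.06 (SE 0.31, adjusted p = 0.932), and the intracellular receptor Trim21 at -0.45 (SE 0.18, adjusted p = 0.215). Fcer1a and Ms4a2, subunits of the IgE receptor of mast cells that also uses the gamma chain, lay under the filter. Of 3 other CD300 genes, 0 passed, also at an unadjusted p under 0.05. Cd300ld stood at 0.46 (adjusted p = 0.505) and Cd300c2 at 0.36 (adjusted p = 0.752), or at 0.01 and -0.33 without knockout 73. Cd300lg, which is known from capillary endothelium, had log2 values of 6.79, 7.90 and 7.79 in the controls and 6.16, 7.59 and 5.39 in the knockouts. It stood at -1.11 (SE 0.57, adjusted p = 0.309) and at -1.71 without knockout 73, where its groups no longer overlapped.

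Among receptors that share the gamma chain or DAP12, 15 were on the array and 12 lay under the filter, among them Trem2, Clec5a and Siglech. The 3 tested gave 0 calls in the limma fit and 1 at an unadjusted p under 0.05. The lectin gene Clec4n, Dectin-2, was higher in 3 of 3 knockouts, by 1.78 (SE 0.58, adjusted p = 0.149), and by 1.22 without knockout 73. The control mean of Clec4n, 5.22, lay under the filter level of 6.10, so it passed the filter through its knockout arrays. It was not tested in the fit without knockout 73.

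The kinases and adaptors downstream of the ITAM gave 0 limma calls in 14 genes tested (4 at an unadjusted p under 0.05), with a median difference of 0.17, or 0.03 without knockout 73. Syk stood at 1.47 (SE 0.54, adjusted p = 0.186), or 0.93 without knockout 73, and was higher in 3 of 3 knockouts. The adaptor Sh3bp2 stood at 1.11 (SE 0.22, adjusted p = 0.0542), and passed with no normalization between arrays (adjusted p = 0.0385) or without knockout 72 (adjusted p = 0.0483), in a range of 0.0385 to 0.172 over 14 alternatives. Phospholipase C gamma 2, Plcg2, stood at -0.52 (SE 0.15, adjusted p = 0.123). On the inhibitory side, 0 of 13 genes passed (6 at an unadjusted p under 0.05), with a median of 0.48, or 0.22 without knockout 73. Clec4a2, an ITIM lectin, stood at 1.98 (SE 0.44, adjusted p = 0.0698), the lipid phosphatase gene Inppl1 at 0.50 (adjusted p = 0.0843) and the adaptor Dok2 at 0.48 (adjusted p = 0.129). The control mean of Clec4a2, 5.47, lay under the filter level of 6.10, so it passed the filter through its knockout arrays. Clec4a2 was not tested in the fit without knockout 73. With array weights, which raised the number of calls over all genes to 1197, Plcg2, Clec4a2, Inppl1, Dok2 and Clec4n were among those past the threshold, as were the genes Ncf4, Coro1a, Ikzf1 and Irf5 of the lists that follow.

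The phagocyte oxidase and phagocytic cup genes, which carry out engulfment after Fc receptor binding, had a median of 1.62 over 14 tested, or 1.05 without knockout 73. The control means of Ncf4 (5.85), Dock2 (5.25), Myo1f (5.58) and Rac2 (5.76) lay under the filter level. These genes passed the filter through their knockout arrays, and the median includes them. Of the 14 tested, 9, among them Ncf4, Dock2 and Myo1f, had an unadjusted p under 0.05, against 21.4% of all genes. In the limma fit 1 of 14 rose, against 1.93% of all genes. This was Ncf1, a cytosolic oxidase subunit, with log2 values of 5.85, 6.61 and 6.13 in control and 7.60, 8.05 and 7.43 in knockout arteries. It rose by 1.497 (SE 0.24, limma adjusted p = 0.0307), but did not pass without control 30 (adjusted p = 0.0649), control 75 (0.114), knockout 72 (0.12), knockout 73 (0.0793) or knockout 86 (0.0798), nor with no filter (0.0742); the range over 14 alternatives was 0.0056 to 0.12. Ncf4 stood at 2.00 (SE 0.46, adjusted p = 0.0776) and the actin regulator Coro1a at 1.86 (adjusted p = 0.096), or 1.55 and 1.42 without knockout 73, and both passed with array weights (adjusted p = 0.0305 and 0.0312). Myeloid transcription factors gave 0 limma calls in 10 tested (4 at an unadjusted p under 0.05), with a median of 0.37. Irf5 stood at 1.47 (SE 0.31, adjusted p = 0.0615), passing with no normalization between arrays (adjusted p = 0.0477) and with array weights (adjusted p = 0.049) in a range up to 0.151, Ikzf1 at 1.93 (adjusted p = 0.112; 0.0299 with array weights) and Irf8 at 1.46 (adjusted p = 0.178). Without knockout 73 these 3 stood at 1.20, 1.44 and 0.87. The control mean of Ikzf1, 5.63, lay under the filter level, so it passed the filter through its knockout arrays. Immunoglobulins and pentraxins, the ligands of Fc receptors, gave 0 limma calls in 4 tested, also at an unadjusted p under 0.05. Their median was 1.10, and 0.03 without knockout 73, in which Igha, the heavy chain of IgA, had a log2 value of 12.77 against 7.12 to 9.05 elsewhere.

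**Figure D4:**
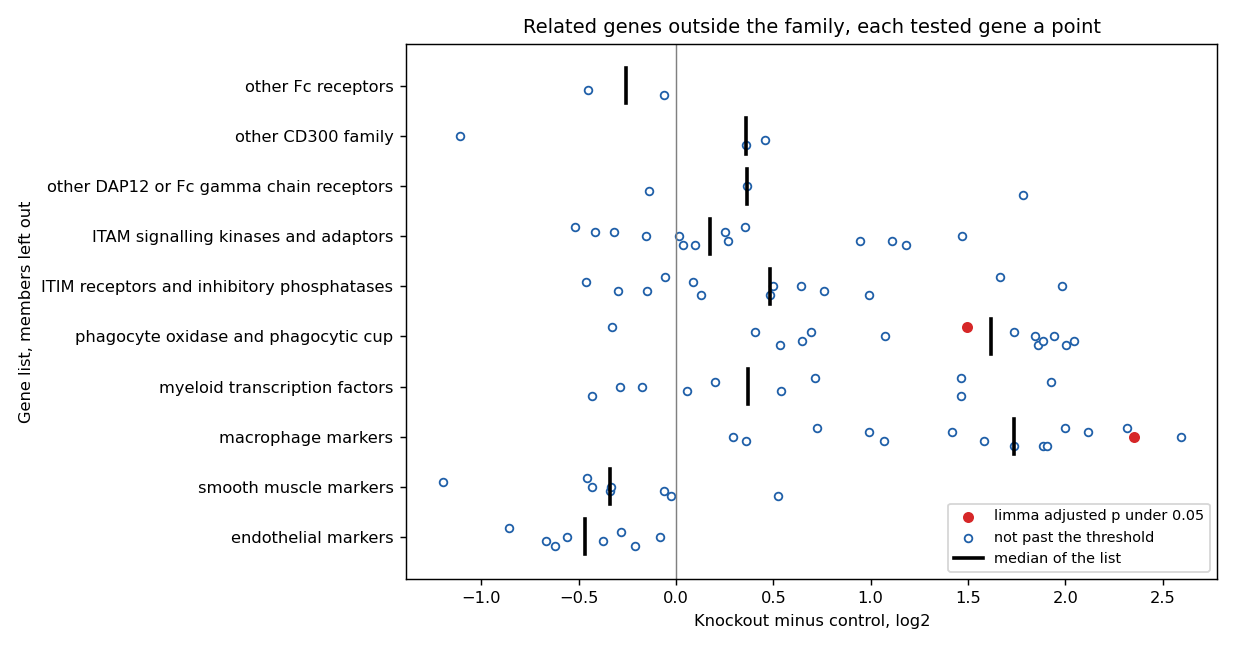
Knockout-minus-control differences on the log2 scale of tested genes in 10 lists, members left out. Each point is a gene, filled red where the limma adjusted p is under 0.05, and black bars are list medians. The medians of the phagocyte (1.62) and macrophage (1.74) lists lie to the right of all others shown.

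Several members lie side by side in the genome, by the order of genes in RefSeq for GRCm38.p6. Fcgr2b, Fcgr4 and Fcgr3 are consecutive protein-coding genes of chromosome 1, Fcer1g lies on the same chromosome, and Cd300a and Cd300lb are adjacent on chromosome 11. Their differences within these groups ran from 0.68 to 2.10 and from 1.13 to 3.69. Of 25 other protein-coding genes tested within 4 places of a member, 15 were lower in the knockout and 1 rose (against 1.93% of all genes), the matrix protease gene Adamts4 beside Fcer1g. It was named after its values were seen, and rose by 1.73 (SE 0.23, limma adjusted p = 0.0163). It did not pass the threshold without control 75 (adjusted p = 0.0681), in a range of 0.00387 to 0.0681 over 11 alternatives. Its mean over all arrays, 6.25, lay just above the filter level of 6.10, so its control mean lay under that level. It therefore passed the filter through its knockout arrays. Of the fits with a knockout left out, it was tested only in that without knockout 86, and in none with a stricter filter. The median of the 25 was -0.18, against -0.05 over all genes. Hcst, the gene next to Tyrobp, encodes DAP10, a sister adaptor. Hcst had log2 values of 6.87, 6.71 and 6.89 in control and 6.52, 7.14 and 7.05 in knockout arteries, a difference of 0.08 (SE 0.19, adjusted p = 0.833). Sdhc and Cfap126, which follow Fcgr3, stood at -0.65 (adjusted p = 0.0615) and 0.10 (adjusted p = 0.744).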

How the data were processed

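Biotin-labelled total RNA of 6 mice was measured on 6 Affymetrix arrays. The authors deposited a linear intensity for each of 45037 probe sets. Their summarisation and scaling method: not given in the sources used here. Median intensity per array was 62.8 to 72.6. No detection calls are in the table, and the number of arrays limits the precision.

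Names came from the 2016 platform annotation (34945 probe sets with 1 symbol, 932 with several, 9160 with none). A constant of 1 was added before taking log2, followed by quantile normalization. Probe sets with 1 symbol and a mean of at least 6.10, the median over all probe sets, were kept, each gene by its brightest probe set (11378 genes). Groups were compared with limma 3.58.1 (R 4.3.3; lmFit, eBayes, 2-sided, Benjamini-Hochberg over 11378 genes). The procedure was tested on simulated data. Alternatives changed the filter, probe set rule, normalization, added constant, variance prior and weights, and left out each array.

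The members and the 22 gene lists were chosen with earlier results of these data known. The rule was to name up to 3 genes per list with the smallest p, and the 10 with the nearest profile. Not all of these are named, and Spi1, Hcst, Sdhc, Cfap126, Cd163 and Mertk are among those named outside the rule. Summed levels add linear values over a list's brightest probe sets.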

Additional observations from a re-analysis of the deposited data

How the results depend on the processing

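The median difference of the 10 members was 1.37 to 1.80 with another probe set rule, normalization, added constant or array weights, and 1.13 (without knockout 73) to 2.14 (without knockout 86) with 1 array left out. Each member's difference was above 0 in all 11 alternatives that touch it. The count of 299 genes was 174 with no filter, 166 with a filter at the 70th percentile, 1197 with array weights and 47 to 279 with 1 array left out. Added after seeing the data, a filter at the median of probe sets with 1 symbol gave 258.

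Some genes that had not passed the threshold changed sign. With 1 array left out, Cd300c2 ranged from -0.33 (without knockout 73) to 0.78, Itgax from -0.21 (without knockout 73) to 1.21, Lep from -1.17 to 0.13 (without knockout 86), Lyve1 from -0.14 (without control 30) to 0.81 and Gp6 from -0.30 to 0.031 (without control 74). Fcgrt ranged from -0.38 to 0.11, with 0.11, 0.09 and 0.09 without control 74, control 75 or knockout 86. Tpsb2 ranged from -0.10 (without control 74) to 0.24, and stood at -0.05 without knockout 73 and -0.23 with array weights. Hcst ranged from -0.034 (without knockout 73) to 0.27, and stood at -0.19 with array weights. The cause was not tested.

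No paired analysis was possible because the animal numbers differ between the groups. With 3 arrays a group and no detection calls, differences at low signal, as for Cd300lf, are poorly resolved.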

Other observations

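Fcrls differed from the other members in that its signal did not follow knockout 73. The tested genes nearest to its own centred profile, looked up after its values were seen, were Cks1b (distance 0.085), Ncaph (0.15), B4galt5 (0.15), Col5a1 (0.17) and Espl1 (0.17), of which Cks1b, Ncaph and Espl1 act in the cell cycle and Col5a1 encodes a collagen chain. Their knockout-minus-control differences were 1.58, 1.55, 1.33, 1.26 and 1.77 on the log2 scale, which the choice by likeness to Fcrls largely fixes, so no test is given. The proliferation markers, which summed to 8.48 to 8.67 in control and 12.2 to 13.0 in knockout arteries, were likewise no higher in knockout 73 (12.19) than in knockout 72 (12.28) or 86 (12.96). In the macrophage list, Cd163 and Mertk were highest in knockout 86 and Ccr2 and Cx3cr1 in knockout 72, whereas its other genes were highest in knockout 73. What sets Fcrls apart was not tested. Cd5l, a macrophage gene that neighbours Fcrls, lay under the filter and stood at 1.605.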
